A study of Mus musculus with 8 samples.

Results

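Keratins are the intermediate filament proteins of epithelial cells. A type I (acidic) keratin pairs with a type II (basic) keratin, and the pairs build the filaments that give epithelia their mechanical strength. In the mouse nearly all type I genes lie in a cluster on chromosome 11 and the type II genes in a cluster on chromosome 15, where Krt18, a type I gene, also lies beside its partner Krt8. Each epithelium uses its own pairs: hepatocytes use KRT8 with KRT18, bile duct cells add KRT7 and KRT19, and most of the other keratins belong to skin, mucosa, hair and nail. H3K27-me3, trimethylation of lysine 27 of histone H3, is placed by Polycomb complexes on genes that are silent in a cell type and is removed by demethylases such as JMJD3.

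The keratin genes were taken by name and place, as the protein-coding genes on chromosomes 11 and 15 called Krt with a number and at most 1 letter, without the keratin-associated protein (Krtap) genes. This gave 53 of 21938 protein-coding genes, with 27 on chromosome 11 and 26 on chromosome 15. By role, 6 were keratins of simple epithelia, 22 of stratified epithelia, 7 of the inner root sheath of the hair follicle, 15 of hair and nail (hard keratins), and 3 (Krt222, Krt88 and Krt90) were put in no role.

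To examine H3K27-me3 in liver with less JMJD3, the study performed ChIP-seq on livers of male C57BL/6 mice that carried the floxed JMJD3 allele in both groups. At an age of 8 weeks they received AAV-TBG-Cre, in which the TBG promoter directs Cre to hepatocytes, or AAV-GFP, and livers were taken 12 weeks later after a fast of 16 h. Each group had 2 H3K27-me3 and 2 input libraries, and the labels name the tissue primary liver cells whereas the protocol starts from minced liver. The cells other than hepatocytes, which the TBG promoter does not target, were therefore part of the chromatin. In such tissue, fewer cells that carry a mark and less mark per cell cannot be told apart.

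The deposited data are 1 list of H3K27-me3 regions per virus group, each made from both mice together, so no difference between the groups could be tested against the spread between mice. All intervals given here are Wilson 95% intervals and cover counting error only. The AAV-Cre list held 59267 regions and the AAV-GFP list 34586. The lists also differed in their regions: the shortest region was 300 bp in AAV-Cre and 120 bp in AAV-GFP, and regions that reached a q-value of 0.05 made up 88.6% of the first list and 46.8% of the second. Read depth is not in these files. As a check of the tissue, marker genes were set beside all protein-coding genes, of which 41.5% lay within 15 kb of a region in AAV-Cre and 27.9% in AAV-GFP. Of the hepatocyte markers 0 of 9 hepatocyte markers lay within 15 kb of a region in either list, whereas 6 of 7 cholangiocyte markers did in AAV-Cre and 5 of 7 in AAV-GFP. Of the other liver cell markers, 5 of 5 stellate cell genes were marked in both lists, 4 and 3 of 5 endothelial genes in AAV-Cre and AAV-GFP, and 3 and 0 of 5 Kupffer cell genes. For keratinocyte markers the counts were 3 of 5 and 0 of 5. Lists of 5 to 9 genes give coarse shares, and 3 of 5 is not far from the share of all genes in AAV-Cre. The cholangiocyte list holds Krt7 and Krt19 and the keratinocyte list Krt5 and Krt14, which are counted below as well. The part of these cells in the keratin regions was not tested.

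The sequence before the start sites is shown for the liver keratins and for the keratins whose start sites held the strongest AAV-Cre regions, because they differ in the CpG dinucleotides that are common where Polycomb complexes bind. Each line gives the 250 bases before the start site on the strand of the gene, 5′ to 3′, from GRCm38, with CpG in capitals. The hepatocyte genes lie at chr15:102004483-102004732 on the minus strand (Krt8, 2 CpG) and chr15:102027930-102028179 on the plus strand (Krt18, 12 CpG).
Krt8: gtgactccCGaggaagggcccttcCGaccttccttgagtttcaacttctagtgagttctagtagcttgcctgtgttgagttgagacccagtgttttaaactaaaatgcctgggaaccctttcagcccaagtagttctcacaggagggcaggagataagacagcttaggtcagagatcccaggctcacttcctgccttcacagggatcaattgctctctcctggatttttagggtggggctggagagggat
Krt18: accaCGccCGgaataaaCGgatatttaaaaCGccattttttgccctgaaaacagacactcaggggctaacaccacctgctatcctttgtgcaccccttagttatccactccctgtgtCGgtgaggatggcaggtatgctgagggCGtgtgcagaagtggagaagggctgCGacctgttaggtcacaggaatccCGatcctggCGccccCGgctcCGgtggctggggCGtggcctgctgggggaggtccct
The biliary genes lie at chr15:101412152-101412401 on the plus strand (Krt7, 16 CpG) and chr11:100146121-100146370 on the minus strand (Krt19, 4 CpG). Both stretches lie inside the annotated gene, since another transcript of each starts further upstream.
Krt7: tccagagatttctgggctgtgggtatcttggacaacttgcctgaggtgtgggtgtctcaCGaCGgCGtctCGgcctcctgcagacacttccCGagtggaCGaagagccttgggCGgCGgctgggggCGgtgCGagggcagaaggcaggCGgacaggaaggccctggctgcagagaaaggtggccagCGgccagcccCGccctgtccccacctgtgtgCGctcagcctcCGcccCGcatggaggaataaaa
Krt19: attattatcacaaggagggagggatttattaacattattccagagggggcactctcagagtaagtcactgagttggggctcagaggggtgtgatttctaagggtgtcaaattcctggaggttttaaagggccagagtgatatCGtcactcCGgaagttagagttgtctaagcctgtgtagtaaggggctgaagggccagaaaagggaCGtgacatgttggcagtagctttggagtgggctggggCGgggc
The start sites under the strongest AAV-Cre regions were those of Krt20 and Krt222 on chromosome 11, at chr11:99438151-99438400 (5 CpG) and chr11:99244086-99244335 (8 CpG), and of Krt87 and Krt80 on chromosome 15, at chr15:101438805-101439054 (21 CpG) and chr15:101370163-101370412 (7 CpG), all on the minus strand.
Krt20: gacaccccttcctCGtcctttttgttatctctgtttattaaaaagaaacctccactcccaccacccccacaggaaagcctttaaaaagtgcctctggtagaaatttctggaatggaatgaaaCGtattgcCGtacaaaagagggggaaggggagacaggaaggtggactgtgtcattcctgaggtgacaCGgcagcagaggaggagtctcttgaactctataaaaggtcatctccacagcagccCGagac
Krt222: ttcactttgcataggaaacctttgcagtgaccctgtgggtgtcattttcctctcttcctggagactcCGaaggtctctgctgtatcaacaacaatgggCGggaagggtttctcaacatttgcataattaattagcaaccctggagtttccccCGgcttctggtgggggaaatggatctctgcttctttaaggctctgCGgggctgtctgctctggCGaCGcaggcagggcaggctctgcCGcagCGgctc
Krt87: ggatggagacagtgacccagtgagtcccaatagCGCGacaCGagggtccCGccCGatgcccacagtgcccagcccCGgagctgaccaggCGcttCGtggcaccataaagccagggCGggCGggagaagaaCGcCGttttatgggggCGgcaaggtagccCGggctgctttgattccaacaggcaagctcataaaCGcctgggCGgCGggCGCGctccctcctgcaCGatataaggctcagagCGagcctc
Krt80: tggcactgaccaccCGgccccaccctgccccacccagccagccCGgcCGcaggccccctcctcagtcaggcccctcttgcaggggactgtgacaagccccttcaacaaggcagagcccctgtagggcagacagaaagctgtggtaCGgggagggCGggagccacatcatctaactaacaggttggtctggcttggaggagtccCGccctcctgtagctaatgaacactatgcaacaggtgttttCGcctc
Among these 8 stretches, Krt87 and Krt7 held the most CpG and Krt8 the fewest.

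Most keratin genes lay near H3K27-me3 in the AAV-Cre list, and fewer did in the AAV-GFP list. Marked genes are those with the edge of a region at most 15 kb from any of their start sites. In AAV-Cre, 42 of 53 keratin genes were marked (79.2%, interval 66.5 to 88.0%), against 41.5% of all protein-coding genes. In AAV-GFP, 22 were marked (41.5%, interval 29.3 to 54.9%), against 27.9% of all genes. All 22 were among the 42 marked in AAV-Cre, so that 20 keratin genes were marked in the AAV-Cre list alone (37.7%, interval 25.9 to 51.2%, against 14.8% of all genes) and 0 in the AAV-GFP list alone (upper limit 6.76%, against 1.22%). The remaining 11 were marked in neither list (20.8%, against 57.2%). The 53 genes are not independent, because neighbours share regions: the 42 marked genes had 18 nearest regions on chromosome 11 and 21 on chromosome 15.

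The count in AAV-GFP rested in part on weak regions. With regions of a q-value of 0.05 or lower, 42 of 53 keratin genes were marked in AAV-Cre and 13 of 53 in AAV-GFP. In AAV-Cre alone 29 of 53 were marked. The shares of all genes were 40.4%, 21.5% and 19.3%. At this setting the keratin share in AAV-GFP was therefore close to that of all genes. In the full AAV-GFP list it was 41.5%, against 27.9%. With the same number of strongest regions in each list, the keratin counts were 40 in AAV-Cre, 22 in AAV-GFP and 18 in AAV-Cre alone. The shares of all genes were then 36%, 27.9% and 9.9%. Under both settings 0 keratin genes were marked in AAV-GFP alone. The share of all genes marked in AAV-GFP alone was not counted at these settings. In the full lists it was 1.22%, near the 0 of 53 keratin genes found there. The window mattered as well. With the full lists, AAV-GFP marked 9.43% of keratin genes within 1 kb, against 16.6% of all genes. Within 5 kb the shares were 20.8% and 20.5%.

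Regions over a start site itself were fewer. In AAV-Cre a region covered a start site of 18 keratin genes (34.0%, interval 22.7 to 47.4%), against 19.5% of all genes. In AAV-GFP 3 were covered (5.66%, interval 1.94 to 15.4%), against 11%. Those 3, Krt12 of the cornea, Krt20 of the gut lining and the hair keratin Krt40, were also covered in AAV-Cre, and all are in the type I cluster. The AAV-GFP region at Krt40 was weak, 228 bp wide with a q-value of 0.71, against 4.5e-05 at Krt12 and 1.8e-07 at Krt20. The other 15 covered in AAV-Cre were Krt222, Krt27, Krt28, Krt39, Krt19 and Krt9 on chromosome 11 and Krt80, Krt7, Krt87, Krt71, Krt2, Krt76, Krt4, Krt79 and Krt78 on chromosome 15. The AAV-Cre region over the start site of Krt76 was weak too, 842 bp wide with a q-value of 0.29. Over all 53 genes the median distance from a start site to the nearest region was 1709 bp in AAV-Cre and 21527 bp in AAV-GFP, against 26724 and 58282 bp over all protein-coding genes.

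**Figure D1:**
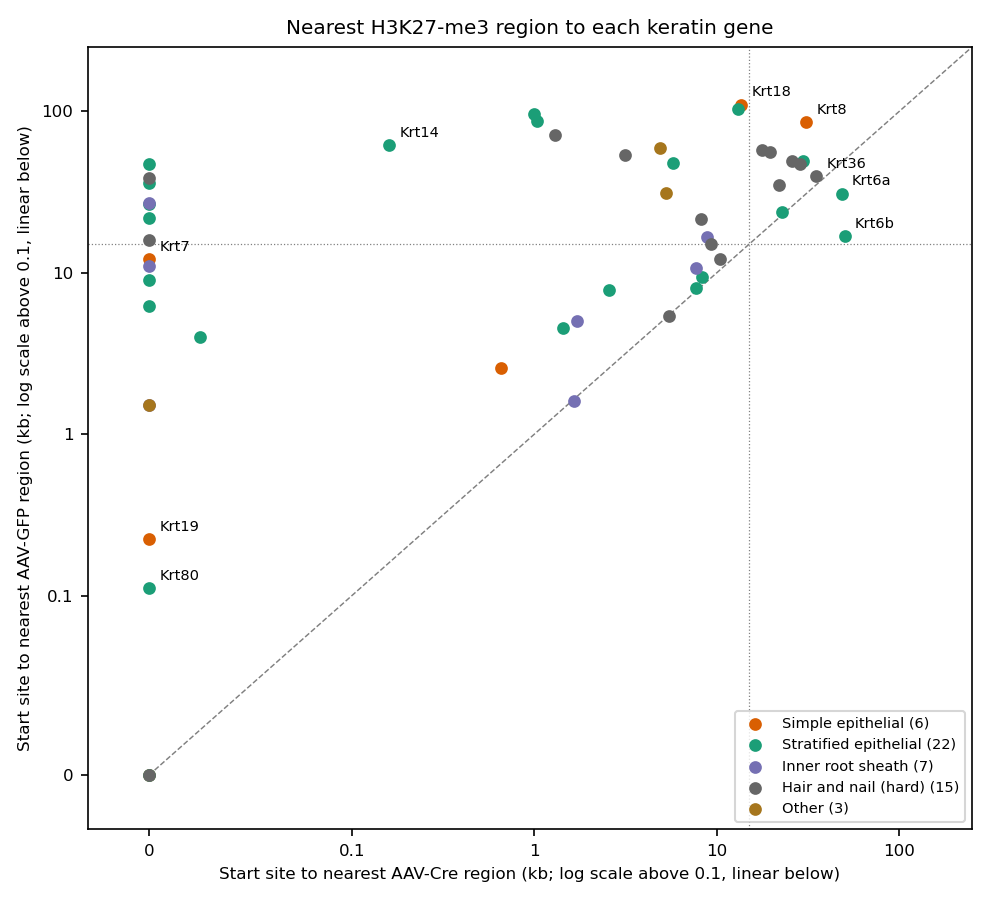
Distance in kb from a start site to the nearest H3K27-me3 region in AAV-Cre (x axis) and AAV-GFP (y axis) for the 53 keratin genes, 1 point per gene, coloured by role. Both axes are logarithmic above 0.1 kb and linear below, the dashed line marks equal distances and the dotted lines the 15 kb window. Most points lie above the dashed line, Krt8 and Krt18 are among the genes farthest from an AAV-GFP region, and Krt25, Krt86, Krt6a and Krt6b lie below the line.

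The hepatocyte keratins and the biliary keratins differed from each other in the place of their nearest regions. Neither pattern was theirs alone. Among all keratin genes, 11 had no region within 15 kb in either list, and 18 had an AAV-Cre region over the start site. Krt6b, Krt6a and Krt36 lay farther from an AAV-Cre region than Krt8. Krt8 (ENSMUSG00000049382.10, chr15:101996698-102004482) had no region within 15 kb in either list: the nearest AAV-Cre region was 30753 bp away and the nearest AAV-GFP region 86005 bp away. Krt18 (ENSMUSG00000023043.7, chr15:102028180-102032027) had its nearest AAV-Cre region 13613 bp downstream and its nearest AAV-GFP region 109703 bp upstream. Neither gene body held a marked base in either list. Krt18 is therefore counted as marked in AAV-Cre through 1 region outside the cluster, at chr15:102041793-102043575, which was 1783 bp wide with a fold enrichment over input of 3.86 and a −log10 p of 8.11. With a window of 5 kb it was marked in neither list.

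Both genes lay in the same stretch without regions. In AAV-Cre this stretch ran for 68.1 kb and held the start sites of Krt8 and Krt18 alone among the keratins. In AAV-GFP it ran for 226 kb and also held Krt4, Krt79 and Krt78, which in AAV-Cre each had a region over the start site. The AAV-GFP region closest to Krt8 and to Krt18 was the same one, 215 bp wide next to Krt4, with a q-value of 0.98. Of all 50-base sequences in the AAV-Cre stretch, 97.3% occur once in the reference, against 94.3% in the whole type II cluster.

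The biliary keratins, in contrast, each had an AAV-Cre region over the start site. At Krt7 (ENSMUSG00000023039.17, chr15:101411043-101430313) it was chr15:101410877-101412764, 1888 bp wide with a fold of 3.18 and a −log10 p of 6.41. At Krt19 (ENSMUSG00000020911.14, chr11:100140810-100148665) it was chr11:100144227-100146972, 2746 bp wide with a fold of 3.43 and a −log10 p of 6.83. Regions covered 25.4% of the body of Krt7 and 35.0% of that of Krt19. In AAV-GFP the nearest region to Krt7 was 215 bp wide and 12196 bp upstream, with a q-value of 0.034. That at Krt19 was 128 bp wide and 224 bp inside the gene from the start site, with a q-value of 0.083. Among regions with a q-value of 0.05 or lower, the AAV-GFP region nearest to Krt19 was 151759 bp away. The remaining simple epithelial keratins, Krt20 and Krt23, lay in the most heavily marked part of the type I cluster. Fold enrichments are not compared between the lists, since they depend on each list's own background.

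The keratin genes of each role were counted within the same 15 kb. Of the 15 hard keratins, 9 were marked in AAV-Cre and 3 in AAV-GFP (Krt40, Krt86 and Krt83), and 6 in neither (Krt33b, Krt34, Krt31, Krt32, Krt35 and Krt36). The 7 inner root sheath keratins were marked in AAV-Cre without exception and 5 of them in AAV-GFP, all but Krt26 and Krt71. Of the 22 stratified keratins, 18 were marked in AAV-Cre and 9 in AAV-GFP, and Krt5, Krt6a, Krt6b and Krt13 were marked in neither. Of the 6 simple epithelial keratins, 5 and 4 were marked. The shares of all genes to set these beside are the 41.5% and 27.9% above, and the groups are too small and too closely spaced for a comparison between roles.

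**Figure D2:**
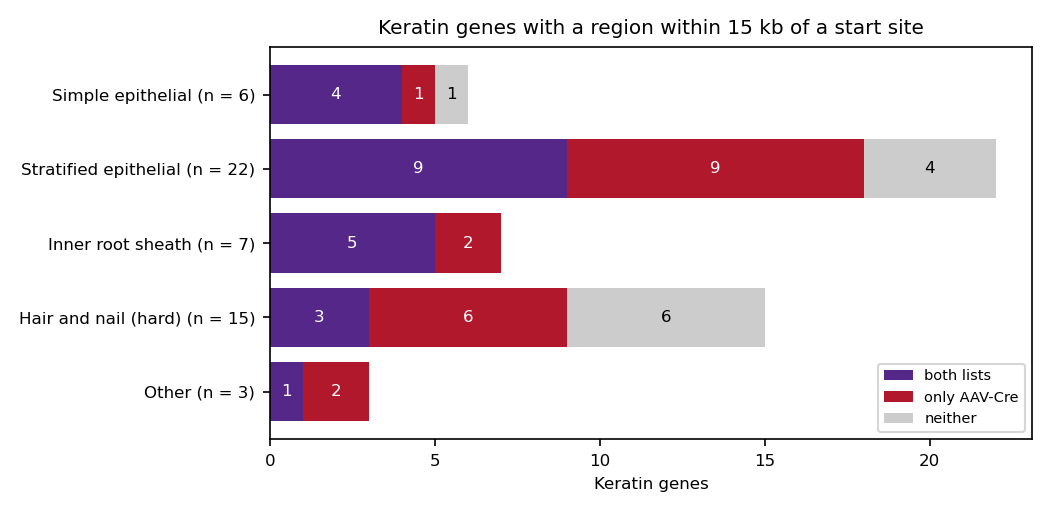
Number of keratin genes (x axis) in each role (y axis) with an H3K27-me3 region within 15 kb of a start site in both lists, in the AAV-Cre list alone or in neither. The hair and nail keratins had 6 of 15 genes in neither list, and the inner root sheath keratins had 0 of 7. All regions of the lists are counted, whatever their q-value.

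The genes of the skin and mucosal pairs lie on different chromosomes, so their values come from separate regions. KRT5 and KRT14 form the filaments of basal keratinocytes. Krt14 had an AAV-Cre region 160 bp upstream of its start site (447 bp, q = 0.023), whereas the nearest AAV-Cre region to Krt5 was 29737 bp away. In AAV-GFP the distances were 61652 and 49441 bp. KRT1 and KRT10 replace them in the layers above, and both genes were marked in both lists: the nearest regions were 25 and 1429 bp away in AAV-Cre and 3976 and 4579 bp away in AAV-GFP. For KRT4 and KRT13, the pair of mucosal epithelia, Krt4 had an AAV-Cre region over its start site and Krt13 was 22661 bp from one. The genes of keratins that are switched on in wounded skin also differed: Krt17 lay 992 bp and Krt16 lay 13119 bp from the same AAV-Cre region, and Krt6a and Krt6b lay 48328 and 50076 bp from one. Krt6b was the keratin gene farthest from an AAV-Cre region, and it was nearer to an AAV-GFP region, at 16830 bp. That AAV-GFP region was weak, 183 bp wide with a −log10 p of 2.24.

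The type I cluster spanned chr11:99232761-100269871 (1037 kb), from Krt222 to Krt42, and also held 23 Krtap genes and 18 other protein-coding genes. In AAV-Cre, 159 regions covered 178 kb of it (17.2%), and in AAV-GFP 128 regions covered 40.1 kb (3.87%). The same shares were 5.06% and 0.989% of chromosome 11, 2.71% and 0.548% of the genome, and 9.67% and 1.14% of the 500 kb on each side of the cluster. The covered length was 4.44 times greater in AAV-Cre than in AAV-GFP, against 4.93 times over the genome. Of the AAV-Cre regions 37.7% (interval 30.6 to 45.5%) were overlapped by an AAV-GFP region, and of the AAV-GFP regions 93.0% (interval 87.2 to 96.3%) by an AAV-Cre region. Over the whole lists these shares were 24.2% and 86.4%.

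The mark of the type I cluster was concentrated around Krt12, Krt20 and Krt23. When AAV-Cre regions at most 5 kb apart were joined, 52 of them formed a run of 136 kb, chr11:99390793-99526423, with 67.5% of its bases inside regions. It held start sites of Krt12, Krt20, Krt23 and the hair keratin Krt39, and was the 21st widest of 20604 such runs in the genome. In AAV-GFP, 84 regions formed a run of 91.5 kb at the same place, chr11:99393943-99485393, with 32.2% of its bases inside regions. It held start sites of Krt12 and Krt20 and was the 10th widest of 11738. The AAV-Cre run made up 13.1% of the cluster but held 51.4% of its covered bases in AAV-Cre and 74.5% of those in AAV-GFP. Within it, 97.6% of 50-base sequences occur once in the reference, against 91.7% over the cluster.

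The strongest region of either cluster was that over the start site of Krt20 in AAV-Cre, at chr11:99437565-99440777, 3213 bp wide with a fold of 8.30 and a −log10 p of 31.9. There were 1898 stronger regions in the list, which places it in the top 3.20%. In AAV-GFP a region of 654 bp covered the same start site, with a fold of 4.13, a −log10 p of 10.2 and 2777 stronger regions. Around Krt20, 78.0% of the bases within 15 kb of the start site lay in AAV-Cre regions and 33.9% in AAV-GFP regions. The widest region, 12104 bp, covered the 3′ part of Krt23 (chr11:99475571-99487674, −log10 p 29.0) and left its start site free by 5463 bp, although another AAV-Cre region began 655 bp upstream. In AAV-GFP the strongest region of this cluster lay between Krt20 and Krt23, 23387 bp upstream of Krt20 and in no gene (986 bp, −log10 p 11.9). The 300 bases of the plus strand centred on the summit of the Krt20 region in AAV-Cre, at chr11:99437762-99438061, lie at the 5′ end of the gene and hold 10 CpG, in capitals.
Krt20 summit: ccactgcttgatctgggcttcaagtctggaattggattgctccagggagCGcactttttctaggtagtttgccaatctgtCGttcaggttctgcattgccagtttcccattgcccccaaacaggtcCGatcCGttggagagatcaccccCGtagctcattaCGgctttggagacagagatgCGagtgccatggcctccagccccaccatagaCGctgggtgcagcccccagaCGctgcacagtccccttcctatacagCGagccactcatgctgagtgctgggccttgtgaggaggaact

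**Figure D3:**
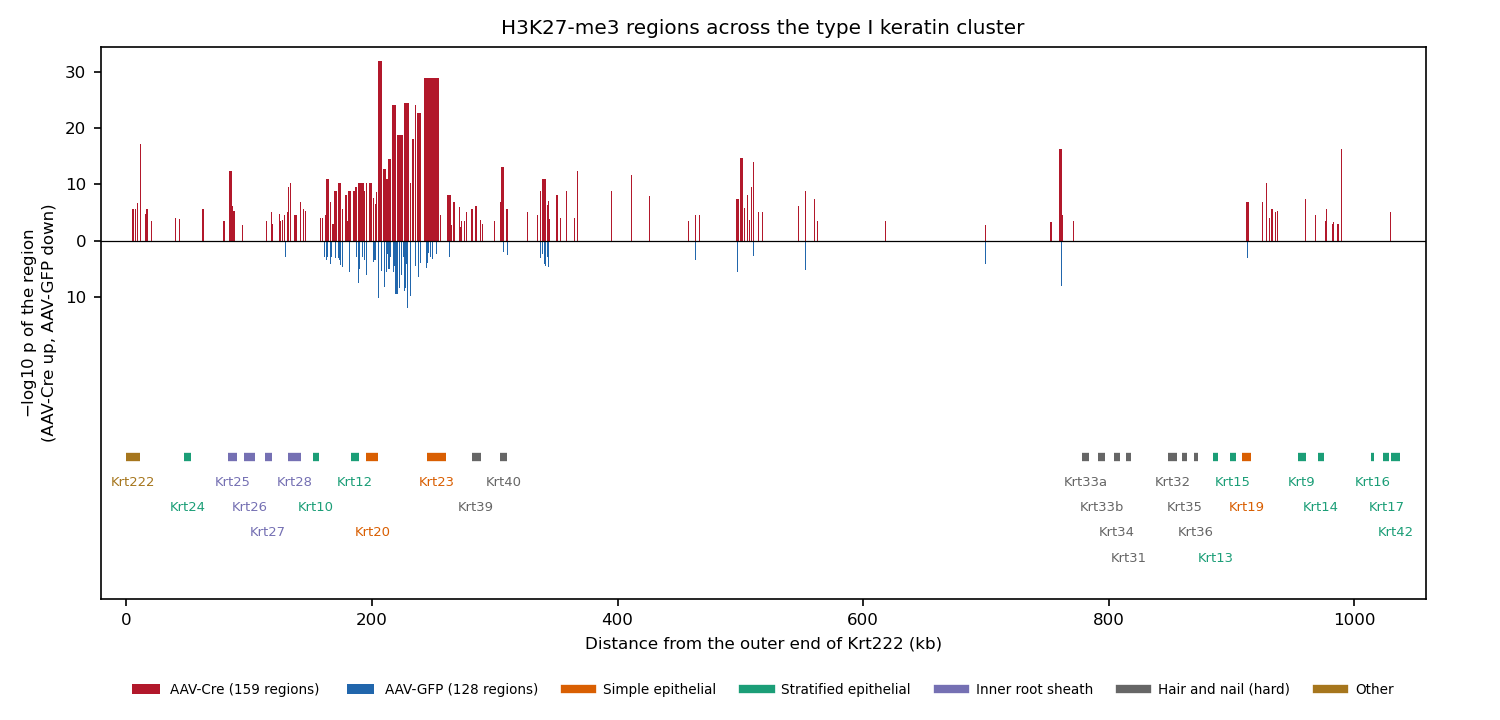
H3K27-me3 regions across the type I keratin cluster, plotted by distance in kb from the outer end of Krt222. The height of a bar is the −log10 p of the region in its own list (AAV-Cre upward, AAV-GFP downward), narrow regions are widened to be visible, and the blocks below are the 27 keratin genes coloured by role. The run around Krt12, Krt20 and Krt23 stands out in both directions, and few bars lie over the hard keratins from Krt33a to Krt36.

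Outside this run the type I genes fell into marked and unmarked neighbourhoods. The inner root sheath genes Krt25, Krt27 and Krt28 were marked in both lists, with AAV-Cre regions over the start sites of Krt27 and Krt28. The hard keratins from Krt33a to Krt36, with Krt13 and Krt15, lay in 2 AAV-Cre stretches without regions of 62.1 and 73.8 kb, separated by a single region of 409 bp. Within the 15 kb window Krt33a (8227 bp) and Krt15 (8299 bp) still counted as marked in AAV-Cre, and Krt15 also in AAV-GFP (9472 bp). Krt36 was the type I gene farthest from an AAV-Cre region, at 35153 bp. In AAV-GFP the same 9 genes lay in 1 stretch of 151 kb. The last 6 type I genes, from Krt19 to Krt42, lay in an AAV-GFP stretch of 211 kb, in which Krt16 was the gene farthest from a region (103006 bp). In AAV-Cre, by contrast, Krt9 of palm and sole skin had a region over its start site and Krt42 one 1039 bp upstream.

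The type II cluster spanned chr15:101347444-102032027 (685 kb), from Krt80 to Krt18, and held 3 other protein-coding genes. In AAV-Cre, 102 regions covered 110 kb of it (16.0%), close to the share of the type I cluster. In AAV-GFP, 23 regions covered 7.36 kb (1.07%). The same shares were 3.08% and 0.611% of chromosome 15, and 15.4% and 3.45% of the 500 kb on each side. The covered length was thus 14.9 times greater in AAV-Cre than in AAV-GFP, against 4.93 times over the genome and 4.44 times in the type I cluster. The ratio also varied outside the clusters: in the 500 kb on each side it was 4.46 for the type II cluster and 8.48 for the type I cluster. Inside the type II cluster it was 22.1 with regions of a q-value of 0.05 or lower, where that of the genome was 6.5. With the same number of strongest regions in each list it was 11.2, where that of the genome was 3.93. Of the AAV-Cre regions 10.8% (interval 6.13 to 18.3%) were overlapped by an AAV-GFP region, and 78.3% of the AAV-GFP regions (interval 58.1 to 90.3%) by an AAV-Cre region. With 1 list per group it was not tested whether the clusters differed in this respect.

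The strongest type II regions lay at Krt1 and Krt77 in both lists. In AAV-Cre the strongest and widest region (chr15:101854174-101862221, 8048 bp, fold 7.26, −log10 p 25.2) covered the 3′ part of Krt77, a keratin of sweat ducts, and reached to 3380 bp upstream of the start site of Krt1. The next (chr15:101844958-101848053, 3096 bp, fold 6.95, −log10 p 24.2) covered the 3′ part of Krt1. In AAV-GFP the strongest region was chr15:101845015-101845631, 617 bp at the 3′ end of Krt1, with a fold of 5.59 and 1301 stronger regions in the list. The next strongest, of 1336 bp, lay in Krt77. The other strong AAV-Cre regions lay at the 3′ part of the hair keratin gene Krt86 (−log10 p 13.9), in Krt79 (13.8) and at the 3′ part of Krt4 (12.4).

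**Figure D4:**
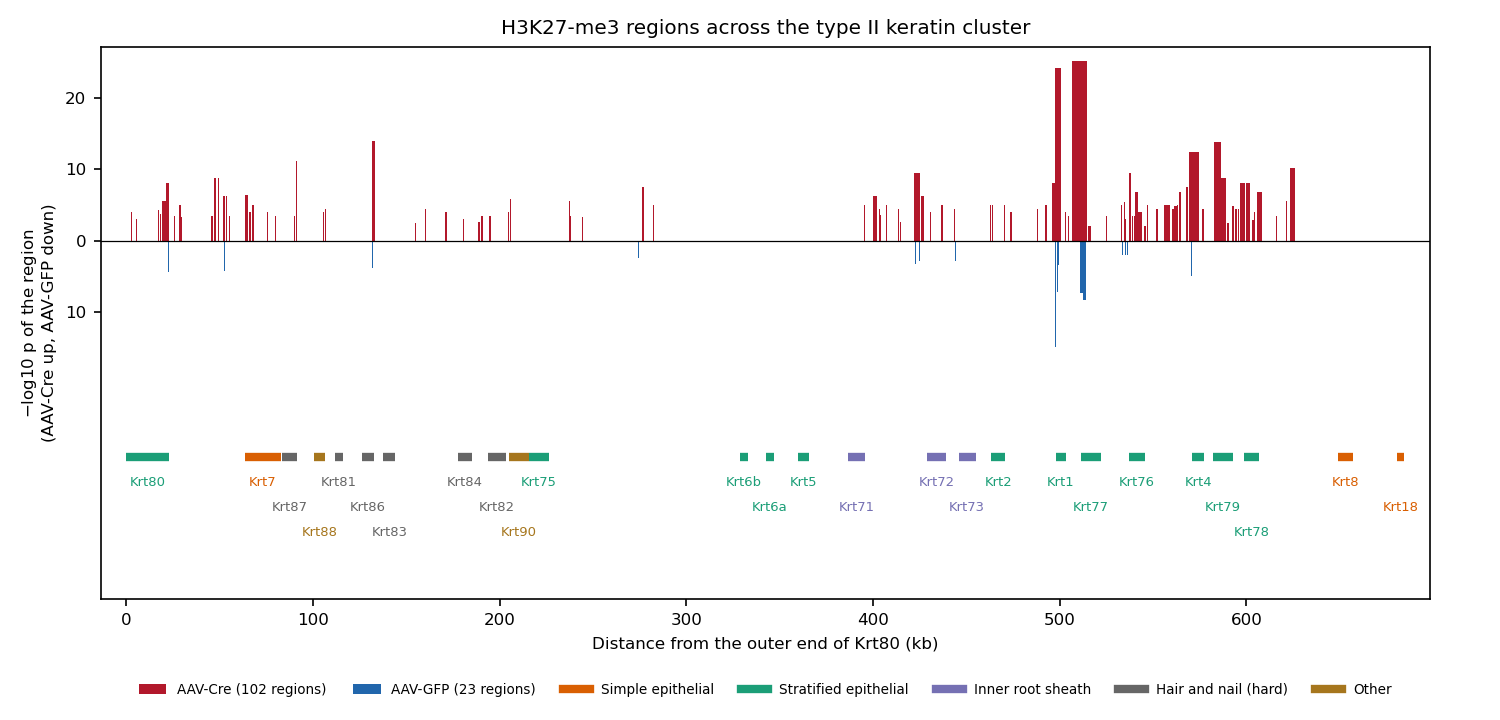
H3K27-me3 regions across the type II keratin cluster, plotted by distance in kb from the outer end of Krt80. The height of a bar is the −log10 p of the region in its own list (AAV-Cre upward, AAV-GFP downward), narrow regions are widened to be visible, and the blocks below are the 26 keratin genes coloured by role. The tallest AAV-GFP bars lie at Krt1 and Krt77, and no bar of either list lies over Krt8 or Krt18 at the right end.

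From Krt76 to Krt78 the AAV-Cre list marked a second neighbourhood. Joined within 5 kb, 21 regions formed a run of 44.5 kb at Krt76 and Krt4, and 11 formed one of 25.8 kb at Krt79 and Krt78. Regions covered 62.3% of the body of Krt76, 66.8% of Krt4, 73.8% of Krt79 and 61.5% of Krt78. In AAV-GFP 0% of each of these gene bodies was covered, and the 44.5 kb held 7 AAV-GFP regions with 1.27 kb in all. Krt79 and Krt78 were marked in AAV-Cre alone, whereas Krt76 and Krt4 were marked in both. Their nearest AAV-GFP regions, 8973 and 6258 bp away, were weak, with q-values of 1.00 and 0.98. Within 15 kb Krt76 had 5 AAV-GFP regions with a highest −log10 p of 5.60, and Krt4 had 2 with a highest of 5.01. Both genes were still marked in AAV-GFP with regions of a q-value of 0.01 or lower. The AAV-Cre region over the start site of Krt76 was itself weak, with a q-value of 0.29. The highest −log10 p of an AAV-Cre region within 15 kb of Krt76 was 9.47.

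At the other end of the cluster, Krt80, Krt7 and Krt87 had an AAV-Cre region over the start site. At Krt80, a keratin of many epithelia, it was 1517 bp wide (−log10 p 8.11), and a region of 156 bp lay 112 bp inside the gene in AAV-GFP (q = 0.027). At Krt87 an AAV-Cre region of 886 bp covered the start site (fold 3.88, −log10 p 11.1), and in AAV-GFP no region came closer than 38598 bp. The hair keratins Krt81, Krt82 and Krt84, with Krt88, Krt90 and Krt75, were marked in AAV-Cre alone, at 1307 to 9243 bp from a region, against 15103 to 71118 bp in AAV-GFP. Krt81 lay just outside the 15 kb window in AAV-GFP, at 15103 bp. The AAV-Cre region nearest to Krt84 was weak (q = 0.14). Krt84 stayed in this group with regions of a q-value of 0.05 or lower, but not with the same number of strongest regions in each list. Krt71 and Krt2 had an AAV-Cre region over the start site, and AAV-GFP regions 27021 and 26560 bp away.

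Between these neighbourhoods Krt6b, Krt6a and Krt5 lay in 112 kb without an AAV-Cre region, the longest such stretch of either cluster. Of its 50-base sequences 88.6% occur once in the reference, and over the gene bodies of Krt6b and Krt6a, which are near copies of each other, 59.5% and 64.3% do. Over the body of Krt5 the share was 96.2%. Reads that match several places are hard to assign, and the part of this in the missing regions was not tested.

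In several genes the nearest region was closer to a neighbour. This was so for 6 of the keratin genes marked in AAV-Cre, where the closer start site was that of another keratin: Krt27 for Krt26, Krt19 for Krt15, Krt17 for Krt16, Krt88 for Krt81, Krt90 for Krt75 and Krt2 for Krt73. In AAV-GFP it was so for Krt15, Krt83 and Krt73, with Krt19, Krt86 and Krt72 closer. When a region marked the gene with the closest start site and no other, the AAV-Cre list marked 37 keratin genes and the AAV-GFP list 19. The share of all protein-coding genes under this rule was not counted, and the shares given for the 15 kb window do not apply to it.

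The DNA around keratin start sites was poor in CpG. Within 500 bp of the start site the median was 2.30 CpG per 100 bases over the 53 genes (range 0.699 to 5.29), against 4.30 over all protein-coding genes, while the GC content was similar, at 54.2% and 55.2%. Keratin genes with an AAV-Cre region over the start site had a median of 2.50 CpG per 100 bases (n = 18), those without one 2.30 (n = 35), and the 11 genes with no AAV-Cre region within 15 kb 1.70. The highest values were those of Krt7 (5.29), Krt87 (5.19) and Krt18 (4.60), and among these Krt18 had no region over its start site. Krt8 had 3.10 CpG per 100 bases, the highest of the 11 genes without an AAV-Cre region within 15 kb.

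Genes with similar CpG content gave another background. Among genes with 2 to 4 CpG per 100 bases, 27 of 30 keratin genes were marked in AAV-Cre within 15 kb (90.0%), against 55.6% of all such genes, and 12 of 30 had a region over the start site (40.0%), against 34.1%. With 1 to 2 CpG per 100 bases these shares were 61.1% of 18 keratin genes against 48.2%, and 22.2% against 20.3%. In the highest class, with at least 4 CpG per 100 bases, 2 of 3 keratin genes had an AAV-Cre region over the start site (66.7%), against 21.7%, and in the lowest, under 1, 0 of 2 did, against 4.72%. In AAV-GFP a region covered the start site of 2 of 30 keratin genes with 2 to 4 CpG per 100 bases (6.67%), against 15.4%, and of 1 of 18 with 1 to 2 (5.56%), against 5.06%. In the highest class it was 0 of 3, against 15.3%. The motif TATAAA, searched on both strands in the 250 bases before the start site, was found in 24 of 53 keratin genes (45.3%) and in 11.4% of all protein-coding genes. Of the 8 stretches printed above Krt20 alone held it. A match of letters does not show that the motif is used.

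**Figure D5:**
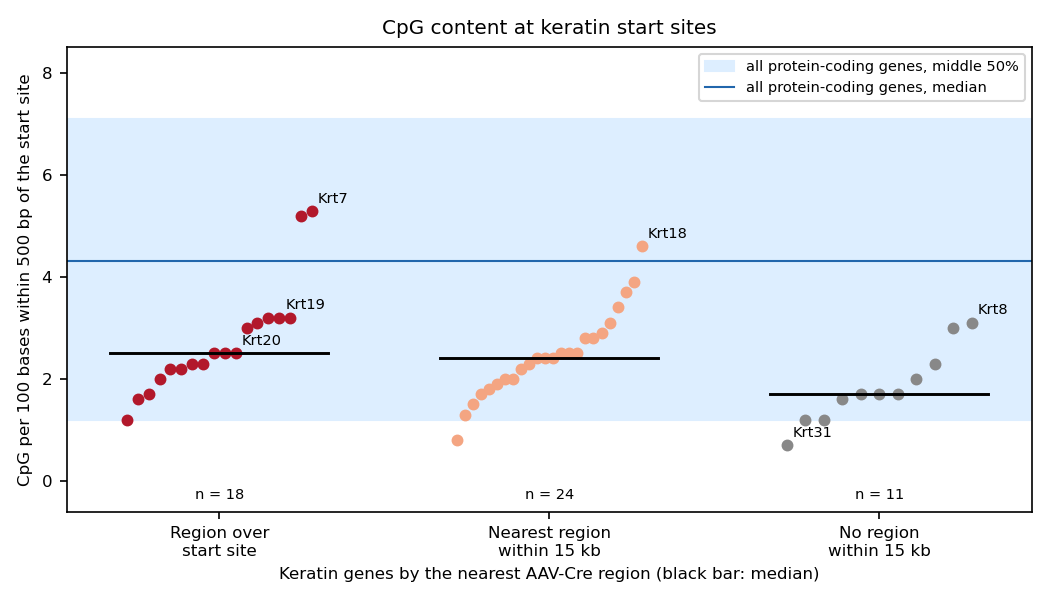
CpG dinucleotides per 100 bases within 500 bp of the start site (y axis) for keratin genes grouped by the nearest AAV-Cre region, 1 point per gene, with the median as a black bar. The shaded band and line give the middle 50% and the median of all protein-coding genes. All 3 medians of the keratin genes lie below the median of all genes, and the 11 genes with no region within 15 kb have the lowest.

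Genes related to the keratins by function or place had their own patterns. The Krtap genes, which lie inside the type I cluster and encode the matrix proteins of hair, were marked within 15 kb in 20 of 23 cases in AAV-Cre (87.0%) and 19 in AAV-GFP (82.6%), against 41.5% and 27.9% of all protein-coding genes. Over the start site itself 8 and 2 of the 23 had a region, against 19.5% and 11% of all genes. Of 45 epidermal differentiation genes on chromosome 3, such as those of loricrin and involucrin, 6 were marked in AAV-Cre (13.3%) and 2 in AAV-GFP (4.44%), both below those shares of all genes. Of 16 other intermediate filament genes, 14 and 13 were marked (87.5% and 81.2%), both above them. These included Vim (vimentin, of mesenchymal cells), Des (desmin, of muscle and stellate cells) and Prph (peripherin, of neurons), all with a region over the start site in both lists. Among 18 regulators of epithelial and hair keratin genes, 18 and 16 were marked (100% and 88.9%), all but Foxn1 and Trp63 in AAV-GFP. Of 12 genes for desmosome plaque proteins and keratin linkers, 9 and 5 were marked (75% and 41.7%).

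Other genes in and around the clusters were counted in the same way. Of 21 protein-coding genes inside the clusters that carry neither a keratin nor a Krtap name, 17 were marked in AAV-Cre (81.0%) and 12 in AAV-GFP (57.1%). All but 2300003K06Rik have provisional Gm names. Whether some of them belong to the keratin or Krtap families was not checked, so they are not an independent background. With the genes within 500 kb on either side added, 61 of 93 were marked in AAV-Cre (65.6%, interval 55.5 to 74.5%) and 39 in AAV-GFP (41.9%, interval 32.4 to 52.1%). Of all genes 41.5% and 27.9% were marked, and of the keratin genes 79.2% and 41.5%, with intervals that overlap those of the 93 genes. The 93 genes include the 21 inside the clusters, and neighbours share regions. Whether keratin genes differ from their neighbours was therefore not tested by these intervals.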

How the data were processed

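H3K27-me3 ChIP-seq libraries and inputs from 2 mice per virus group were processed by the authors with the AQUAS pipeline: mapping to mm10 with BWA 0.7.13, filtering with SAMtools 1.2 and Picard 1.126 (per the labels), and peak calling with MACS against pooled input. Each deposited list holds peaks that overlapped across both replicates of a group. Read length is not given in the sources used here. Per peak, the authors deposited a fold enrichment over input, a −log10 p, a −log10 q and a display score, which was not used.

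Genes and start sites came from GENCODE M21 (basic protein-coding transcripts; for 87 genes without one, the start of the gene), and sequence from GRCm38, the assembly of mm10. Distances ran from a start site to the nearest edge of a region, and regions were shared from 1 bp of overlap. Of 52 names in the role lists, 50 were found. The share of 50-base sequences found once was counted on both strands and was added after the data were seen. The keratin genes, role groups and gene lists were chosen with earlier results of these data known. Named genes were the liver keratins, those marked in 1 list or with a covered start site, those nearest to the strongest and widest regions, and those farthest from one. Functions were tested on simulated data against direct counts. NumPy 2.4.6, pandas 2.3.3 and SciPy 1.17.1 were used.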

Additional observations from a re-analysis of the deposited data

How the results depend on the processing

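No paired analysis was possible because each list pools both replicates, and no replicate was left out, since the lists are not split by mouse. The count of keratin genes marked in AAV-Cre moved by over 1.5 times with a window of 1 kb, from 42 to 22, and under no other alternative tried. A window of 1 kb lies inside that of 15 kb, so by its definition this count could not rise.

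With a q-value of 0.05 or lower, AAV-GFP gave 13 marked keratin genes, 2.18% and 0.677% of the type I and type II clusters covered and 50 and 9 regions, the shared part of AAV-Cre regions was 19.3% and 5.49%, and the nearest AAV-GFP regions to Krt8, Krt18 and Krt19 were 86403, 110101 and 151759 bp away. With 0.01 or lower, AAV-GFP gave 10 marked genes (32 in AAV-Cre alone), 1.63% and 0.596% covered, 33 and 6 regions, shared parts of 16.4% and 4.17%, and distances of 86403, 110101 and 151759 bp, with Krt7 at 172946 bp. With the same number of strongest peaks, 51.9% of the type I AAV-Cre regions were shared and the type II cluster held 59.

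A window of 1 kb marked 22 genes in AAV-Cre (41.5%) and 5 in AAV-GFP (9.43%), against 23.9% and 16.6% of all protein-coding genes. In AAV-GFP, 5 kb marked 11 (20.8%, against 20.5%) and 50 kb marked 42 (79.2%, against 46.6%). The 50 kb window left 11 in AAV-Cre alone (20.8%, against 17.2%) and 1 (Krt6b) in AAV-GFP alone (1.89%, against 2.09%). In AAV-GFP the share of keratin genes was thus below that of all genes at 1 kb and about equal to it at 5 kb. Krt6b lay just outside the 50 kb window in AAV-Cre, at 50076 bp, and its AAV-GFP region was the weak one of 183 bp. The gene body extended by 1 kb marked 14 in AAV-GFP. With 0.5 of the region required, 7.55% and 0.980% of AAV-Cre regions were shared. Merging within 1 kb left 83 and 59 AAV-Cre and 57 and 13 AAV-GFP regions. Merging within 5 kb left 37 and 29 AAV-Cre and 27 and 11 AAV-GFP regions, covered 30.9% and 30.4% in AAV-Cre and 11.7% and 2.37% in AAV-GFP, and gave shared parts of 45.9% and 24.1% in AAV-Cre and 85.2% of type I regions in AAV-GFP.

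All other alternatives tried (76 of 124) stayed within 1.5 times, or within the interval of the share. The lists hold no read depth, which limits any statement on weak regions.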
